A study of Mus musculus with 2 samples.

Results

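The 10 genes described here, Acta2, Actc1, Acta1, Tagln, Tagln2, Cnn1, Myl9, Tpm1, Tpm2 and Actg2, encode actins of muscle type and proteins that bind or move actin filaments. They are 10 of the 32286 features counted in both libraries, and they were selected on measured values of these data, in that some of them had been seen to vary with stage, line or feeder cells. What follows is therefore a description, with no test of the differences that led to their choice.

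Single-cell libraries, 2 in number, were made from mouse cells, and in each of them 2 lines had been mixed in equal cell numbers. The wild-type (WT) line carried the ROSA mT/mG reporter, which gives tdTomato, and the other line was a Cnot8 knockout (KO), which came from blastocysts of matings between heterozygous mice made by CRISPR, with single colonies picked. Embryonic stem cells (ESCs) were grown in serum/LIF on feeder cells and were sampled at 0 h. Where the study's methods describe feeders, these are embryonic fibroblasts of ICR mice inactivated with mitomycin C. The second library held 48h-EpiLCs, epiblast-like cells grown for 48 h on Matrigel in N2B27 with activin A, bFGF and KSR. Both libraries were labelled strain ICR and genotype wild type, although each held both lines. Since each stage is 1 library and each line is 1 stock, stage cannot be told apart from library, nor the Cnot8 deletion from clone and the sex-linked transcripts that also separate the lines.

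Contractile genes of this kind are classical targets of serum response factor (SRF), which binds a DNA element called the CArG box. Monomeric actin holds the SRF cofactors Mrtfa and Mrtfb out of the nucleus, and its polymerization into filaments releases them, so that SRF then raises the transcription of actin and actin-binding genes. Smooth muscle, myofibroblasts and cultured fibroblasts are well known for high levels of Acta2 and Tagln. Pluripotent cells, in contrast, mainly use the cytoplasmic actins Actb and Actg1.

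A barcode was kept where 1000 or more genes were detected and no more than 10% of its unique molecular identifiers (UMIs) were mitochondrial, which left 11054 of 13184 barcodes in the ESC library and 9400 of 12427 in the 48h-EpiLC library. The median UMI count per barcode was 10965.5 in the former and 13333 in the latter, and 41 barcode sequences occurred in both, 0.311% and 0.330% of each. Feeder cells were those with at least 5 UMIs of Col1a2, a fibroblast collagen. There were 89 in the ESC library and 0 in the 48h-EpiLC library, where no cell had more than 4 Col1a2 UMIs. Among the other cells, the WT class had at least 1 tdTomato UMI and 0 UMIs of Ddx3y, Eif2s3y, Kdm5d and Uty, and the KO class had 0 tdTomato UMIs and at least 2 UMIs of those 4 genes. This gave 434 WT and 2944 KO cells in the ESC library and 368 WT and 2977 KO cells in the 48h-EpiLC library, with median depths of 13150, 13324, 15598 and 17628 UMIs. Most cells of the WT class had only 1 tdTomato UMI. A further 5284 and 4247 cells of the ESC and 48h-EpiLC libraries carried neither mark and belonged to neither class. The same holds for 81 and 84 cells with both marks, and for cells with 0 tdTomato UMIs and 1 UMI of the 4 genes. The Cnot8 transcript itself stood at 42.9 counts per 1000000 UMIs of the class (CPM) in the WT and 72.5 in the KO class of ESCs, and at 49.7 and 62.6 in 48h-EpiLCs, but 3′ tags do not read the edited exon and check nothing about the line.

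The labels of the feeder and pluripotent cells were compared with marker lists. The 10 fibroblast markers summed to 1757 CPM in the feeder cells, against 13.4 and 23.0 in the WT and KO classes of ESCs and 10.1 and 14.0 in those of 48h-EpiLCs. Col1a2, which chose the feeder cells, gave 619 of their 1757 CPM and checks nothing there, and the other 9 ranged from 3.46 (Lum) to 431 (Col1a1). Lum was at 0 in the WT class of ESCs, and Col3a1, Postn and Lum were at 0 in the WT class of 48h-EpiLCs. The 6 pluripotent markers were all detected in every class and summed to between 3441 and 4989 in the WT and KO classes. They also reached 1601 in the feeder cells. Feeder cells can meet the rule of the KO class, since 34 of the 89 did so and 1 met that of the WT class before they were set aside. After that step, 112 KO-class cells of the ESC library (3.80%) and 6 WT-class cells (1.38%) still had more than 1 fibroblast-marker UMI. Where they moved, levels and folds of the contractile genes are therefore also given for the cells outside the feeder class with at most 1 fibroblast-marker and at least 10 pluripotent-marker UMIs, called marker-selected cells below, a restriction chosen after the data were seen.

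The CArG box was looked for in the 250 bases before the RefSeq start of each gene in the mouse build GRCm38.p6, where 8 of the 10 genes matched an entry (not Tagln and Actg2). The exact element was present before Actc1, Acta1 and Myl9, 3 of 8 genes, against 1.47% of 32851 RefSeq promoter windows of this length. With 1 base allowed to differ, a match stood before 5 of 8, Acta2 and Tpm1 being added, against 18.6% of all windows. Since genes of this kind are classical SRF targets, larger shares than over all windows were foreseeable and are no new support. No such letters were found in the windows of Tagln2, Cnn1 and Tpm2. The element reads the same on both strands. The stretches of 30 bases below show matches of Acta2, Actc1, Acta1 and Myl9, which had the largest folds between the lines in 48h-EpiLCs among the genes with an entry, with the CArG-like letters in capitals. Written 5′ to 3′ on the strand of the gene, they are:

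Acta2, 84 to 75 bases before the start, chr19:34255438-34255467, minus strand, 1 base differing: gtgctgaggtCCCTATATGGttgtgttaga

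Acta2, 34 to 25 bases before the start, chr19:34255388-34255417, minus strand, 1 base differing: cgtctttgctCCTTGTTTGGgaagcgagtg

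Actc1, 175 to 166 bases before the start, chr2:114053031-114053060, minus strand, 1 base differing: ctccctagctCCCTATATGGccattgctct

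Actc1, 47 to 38 bases before the start, chr2:114052903-114052932, minus strand, exact: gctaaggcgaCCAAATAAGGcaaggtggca

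Acta1, 73 to 64 bases before the start, chr8:123894829-123894858, minus strand, exact: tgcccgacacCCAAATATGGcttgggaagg

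Myl9, 161 to 152 bases before the start, chr2:156775293-156775322, plus strand, exact: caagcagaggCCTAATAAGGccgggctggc

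Myl9, 99 to 90 bases before the start, chr2:156775355-156775384, plus strand, 1 base differing: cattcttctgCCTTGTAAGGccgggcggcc

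The same CCCTATATGG stood before both Acta2 and Actc1. Actc1 had 4 such matches in all, of which 2 are shown, and Acta1 had 3. Tpm1 had 2, which are not shown. The Acta1 window is shown whole because it held an exact element together with 2 matches that differed by 1 base, and lies upstream of the annotated start of the gene.

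Acta1, chr8:123894776-123895025, minus strand: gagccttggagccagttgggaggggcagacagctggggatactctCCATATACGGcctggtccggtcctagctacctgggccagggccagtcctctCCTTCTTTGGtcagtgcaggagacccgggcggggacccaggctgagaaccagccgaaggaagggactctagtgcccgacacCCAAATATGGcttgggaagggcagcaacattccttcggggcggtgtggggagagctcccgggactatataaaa

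A match is only a run of letters, and binding was not measured. Among the 30 other actin-MRTF-SRF target genes listed beside the members, 24 had entries, with 31 windows, of which 8 (25.8%) held the exact element. In the annotation of the same build, Acta2 lies at chr19:34241090-34255590 and has no overlapping gene. Its annotated start there is 217 bases upstream of the RefSeq start, so its window lies partly within the annotated gene. The same holds for Tpm1 and Myl9, whose annotated starts are 193 and 44 bases upstream. It also holds for the windows without a match, those of Tpm2, Tagln2 and Cnn1, with starts 211, 199 and 37 bases upstream. The window of Actc1 lies wholly within the annotated gene, which starts 673 bases upstream. Actc1 (chr2:114047282-114053548) and Acta1 (chr8:123891769-123894751) each overlap 1 gene on the opposite strand, A530058N18Rik and Gm20388, and Tagln (chr9:45929619-45936058) overlaps Pcsk7 and Gm48529 on the opposite strand. Tagln2, Cnn1, Myl9, Tpm1, Tpm2 and Actg2 overlap none.

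Levels are given in CPM, with the exact 95% Poisson interval of the summed count. These intervals, and those of folds and shares, cover counting error only, since each class comes from 1 library without replicate. Those of levels and folds also treat UMIs as independent, so they can be too narrow where few cells hold many UMIs of a gene. The coding sequences of the actin genes are alike, so reads that fit more than 1 of them could have been left uncounted.

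**Figure D1:**
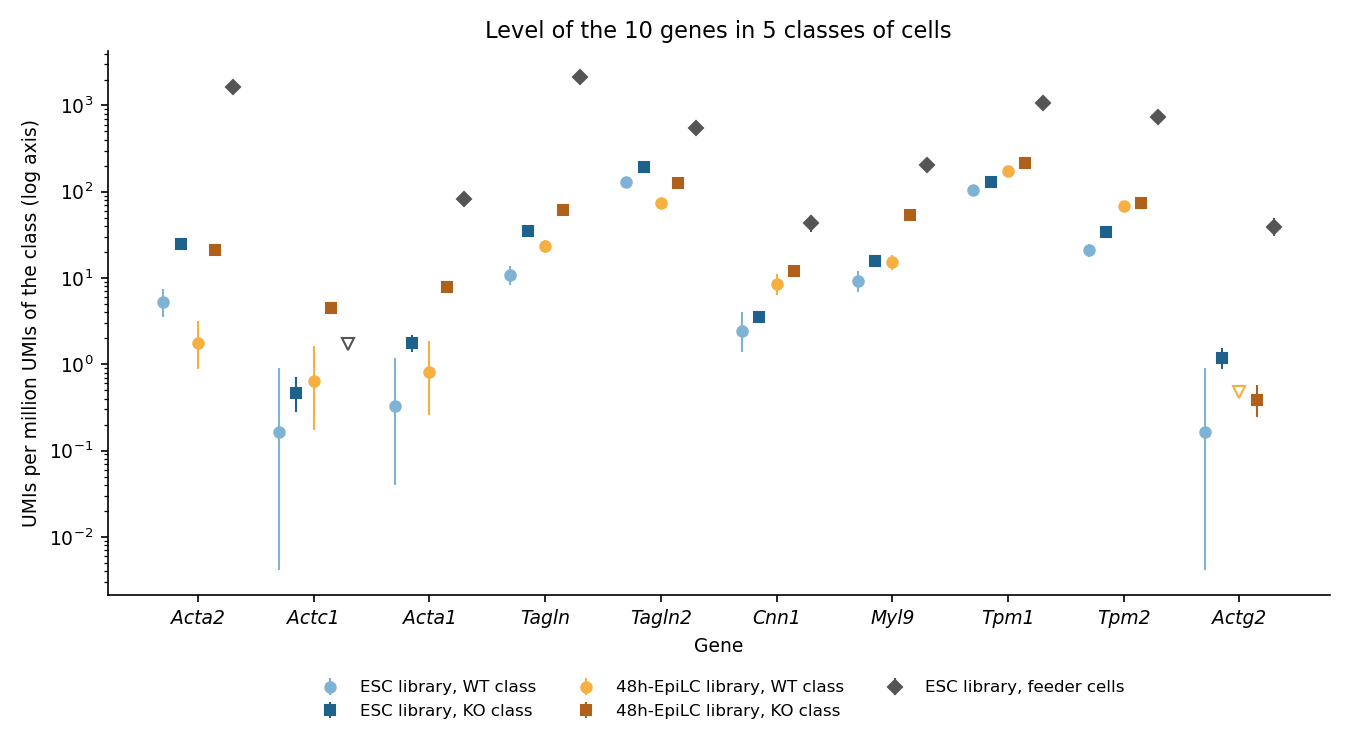
Level of each of the 10 genes in the WT and KO classes of both libraries and in the feeder cells of the ESC library, in CPM of the class on a log axis. Bars are exact 95% Poisson intervals, and open triangles mark the level of 3 UMIs where the class had 0. Feeder cells were highest for every gene but Actc1. For Acta2, Actc1, Acta1, Tagln, Tagln2, Myl9 and Tpm1 the interval of the KO class of 48h-EpiLCs stood clear of that of the WT class.

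Acta2 encodes the smooth-muscle alpha-actin of stress fibres. It stood at 5.22 (3.57 to 7.37) in the WT class and 24.5 (23.1 to 26.0) in the KO class of ESCs. In 48h-EpiLCs the WT class had 11 UMIs of Acta2, 1.77 CPM (0.883 to 3.16), and the KO class 1237 UMIs, 20.9 CPM (19.7 to 22.1). In feeder cells it reached 1650 (1590 to 1711). The 5 classes all differed beyond their counting intervals, in the order feeder, KO ESC, KO 48h-EpiLC, WT ESC and WT 48h-EpiLC. In marker-selected cells KO ESCs stood at 10.3 and KO 48h-EpiLCs at 20.4, so that this pair changed place. At least 1 UMI was found in 84.3% of feeder cells, in 5.53% of WT and 11.5% of KO ESCs, and in 2.99% (1.50 to 5.29) of WT and 18.8% (17.4 to 20.2) of KO 48h-EpiLCs. When every cell was thinned to 5000 UMIs, with 1 WT and 9 KO cells of 48h-EpiLCs too shallow and left out, the last pair became 1.63% (0.602 to 3.52) and 7.99% (7.03 to 9.02). The ESC pair became 3.46% (1.95 to 5.65) and 4.66% (3.92 to 5.48), whose intervals overlap, with 1 WT and 23 KO cells left out. No class here is known to lack Acta2, so the WT 48h-EpiLCs give the lowest share with which the others can be compared. No cell of that class had more than 1 Acta2 UMI, whereas 130 KO-class 48h-EpiLCs had at least 3 and 14 had at least 10.

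Actc1 and Acta1 encode the cardiac and skeletal muscle alpha-actins. Both were rare, and both were highest outside the feeder cells in the KO class of 48h-EpiLCs. Actc1 had 1 and 20 UMIs in WT and KO ESCs (0.163 and 0.461 CPM) and 4 and 268 UMIs in WT and KO 48h-EpiLCs (0.643 and 4.52). It was the only gene of the 10 with no UMI in the 89 feeder cells, which at this depth allows up to 1.73 CPM. Its KO 48h-EpiLC level stood above all others, while WT 48h-EpiLCs, KO ESCs, WT ESCs and feeder cells could not be ordered beyond counting error. Acta1 had 2 and 76 UMIs in WT and KO ESCs (0.327 and 1.75 CPM) and 5 and 466 in WT and KO 48h-EpiLCs (0.804 and 7.86). In feeder cells it reached 83.0 (70.0 to 97.7), from 16 of the 89 cells and up to 40 UMIs in 1 cell. Neighbours in its order that did not differ beyond their interval were KO ESCs and WT 48h-EpiLCs, and WT 48h-EpiLCs and WT ESCs.

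Actg2, the enteric smooth-muscle gamma-actin, differed from Actc1 in where it was found. It had 68 UMIs in feeder cells (39.2 CPM, 30.4 to 49.7), 1 and 51 in WT and KO ESCs (0.163 and 1.18), and 0 and 23 in WT and KO 48h-EpiLCs. The last level was 0.388 (0.246 to 0.582), which lies below the 0.482 that a count of 0 allows in the WT class, so no difference between the lines was detectable there. KO 48h-EpiLCs, WT ESCs and WT 48h-EpiLCs could not be ordered for Actg2.

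Tagln and its relative Tagln2 encode transgelins, small proteins that bundle actin filaments. Tagln stood at 10.8 (8.33 to 13.7) and 35.0 (33.3 to 36.8) in WT and KO ESCs, at 23.3 (19.7 to 27.4) and 61.0 (59.0 to 63.0) in WT and KO 48h-EpiLCs, and at 2156 (2088 to 2227) in feeder cells. All neighbours in its order differed beyond their intervals, but KO ESCs and WT 48h-EpiLCs changed place in marker-selected cells, at 17.3 and 23.8. Tagln2 followed another order, with 128 and 195 in WT and KO ESCs against 73.3 and 127 in WT and KO 48h-EpiLCs, and 541 in feeder cells. In both lines it was thus higher in ESCs than in 48h-EpiLCs. WT ESCs and KO 48h-EpiLCs did not differ for Tagln2 (fold 1.01, 0.936 to 1.09).

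Myl9, a regulatory light chain of myosin, and Cnn1, the calponin that restrains myosin on actin in smooth muscle, were both higher in 48h-EpiLCs. Myl9 stood at 9.14 (6.91 to 11.9) and 15.9 (14.8 to 17.2) in WT and KO ESCs, at 15.3 (12.4 to 18.7) and 53.8 (51.9 to 55.7) in WT and KO 48h-EpiLCs, and at 202 in feeder cells. It was detected in 47.0% of KO and 19.6% of WT 48h-EpiLCs, and in 20.0% (18.6 to 21.5) and 7.36% (4.90 to 10.5) after thinning. Cnn1 was lower, with 2.45 and 3.55 in WT and KO ESCs, 8.52 and 12.0 in WT and KO 48h-EpiLCs, and 43.2 in feeder cells. KO ESCs and WT 48h-EpiLCs did not differ beyond their interval for Myl9, nor did KO and WT ESCs for Cnn1.

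Tpm1 and Tpm2 encode tropomyosins, which lie along actin filaments. Tpm1 varied least among the 4 classes of pluripotent cells, at 104 and 128 in WT and KO ESCs and 175 and 213 in WT and KO 48h-EpiLCs, against 1072 in feeder cells, each neighbour in the order differing beyond its interval. Tpm2 stood at 21.1 and 34.6 in WT and KO ESCs and at 68.5 and 74.8 in WT and KO 48h-EpiLCs, a pair that did not differ beyond its interval, and at 728 in feeder cells.

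The difference between the lines was first taken within the 48h-EpiLC library. A gene was counted where its mean over both classes was at least 5 CPM, and called higher or lower where the log2 ratio, with 1 CPM added to both levels, reached a 2-fold change. Of 9385 genes counted, 2.31% were called higher and 0.938% lower in the KO class, and the median log2 ratio of all genes was 0.07. The contractile genes were chosen with this contrast in view, so their counts beside these percentages are descriptive. All 7 of the 10 that were counted had ratios above 0, with a median log2 ratio of 0.78, and 3 of them, Acta2, Myl9 and Tagln, were called higher. Acta2 was 11.8-fold higher in the KO class (6.57 to 23.7), Myl9 3.52-fold (2.87 to 4.36) and Tagln 2.62-fold (2.22 to 3.11). Tagln2 was 1.73-fold higher (1.57 to 1.91), Cnn1 1.41-fold (1.06 to 1.90) and Tpm1 1.22-fold (1.14 to 1.30), and Tpm2 was not distinguishable (1.09-fold, 0.989 to 1.21). Acta1 and Actc1 fell below the mean level needed to be counted, with folds of 9.78 (4.16 to 30.3) and 7.03 (2.71 to 26.0).

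The summed fibroblast markers stood at 10.1 CPM in the WT and 14.0 in the KO class of 48h-EpiLCs. Dcn gave the largest part, at 4.02 and 5.99, whereas Col1a2 stood at 0.482 and 0.388. Whether the sum reflects fibroblast RNA in this library, where no feeder cell was called, was not tested. In the marker-selected cells, 2830 of the KO and 359 of the WT class, Acta2 was 11.2-fold higher in the KO class (6.24 to 22.5), Acta1 8.58-fold (3.65 to 26.6), Actc1 6.75-fold (2.60 to 25.0), Myl9 3.49-fold (2.84 to 4.33) and Tagln 2.49-fold (2.11 to 2.97). These folds lay within the intervals of those with all cells.

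**Figure D2:**
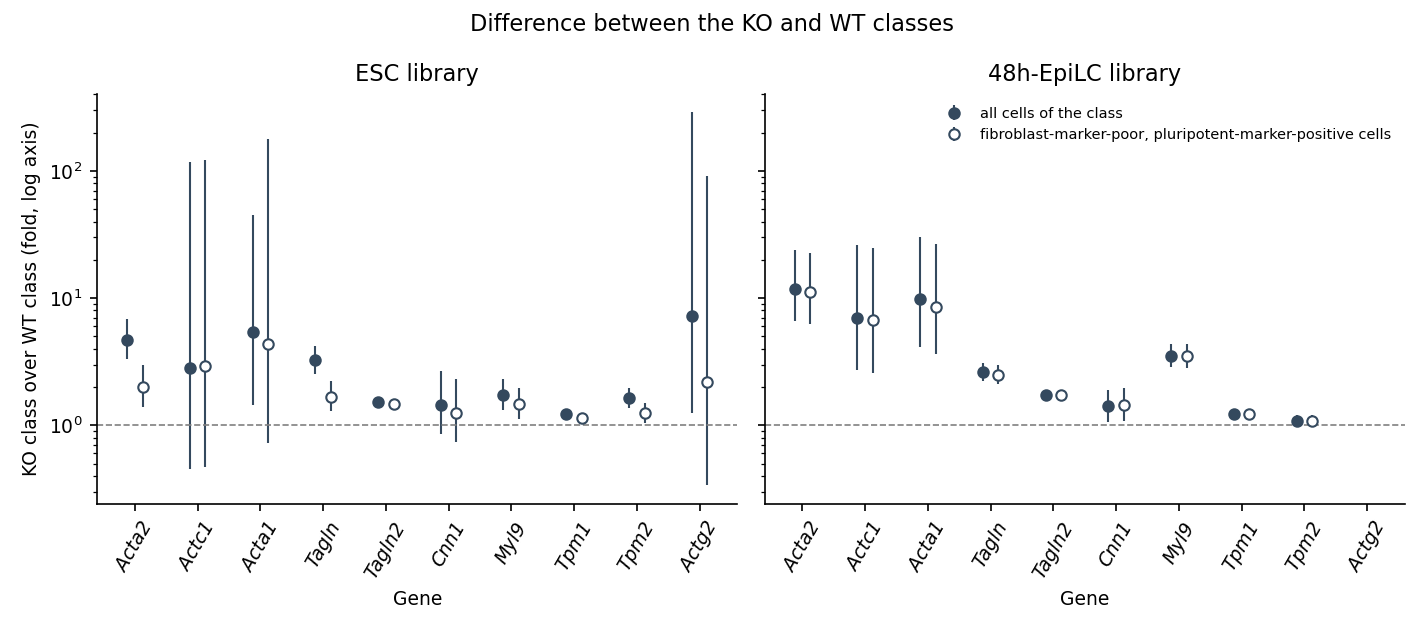
Fold difference of the KO class over the WT class in each library on a log axis, with exact 95% binomial intervals of the 2 summed counts. Filled points are all cells of the class and open points the marker-selected cells, and Actg2 has no point in 48h-EpiLCs because the WT class had 0 UMIs. Open and filled points nearly coincide in the 48h-EpiLC library, whereas in the ESC library Acta2 moved from 4.69-fold to 1.99-fold and Tagln from 3.25-fold to 1.68-fold.

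Among ESC-library cells, 3.36% of 9254 genes were called higher and 1.46% lower in the KO class, with a median log2 ratio of 0.12 over all genes. The 6 contractile genes counted all had ratios above 0 (median 0.71), and 2 of them, Acta2 at 4.69-fold (3.30 to 6.89) and Tagln at 3.25-fold (2.54 to 4.22), were called higher. Here the values moved with the fibroblast markers, which were at 13.4 CPM in the WT and 23.0 in the KO class. In the marker-selected cells, Acta2 stood at 10.3 in the KO and 5.16 in the WT class, 1.99-fold (1.38 to 2.97), and Tagln at 17.3 and 10.3, 1.68-fold (1.29 to 2.21), and none of the 6 was called. Tagln2 changed little under this restriction, from 1.52-fold (1.41 to 1.64) to 1.48-fold (1.37 to 1.59), and Myl9 went from 1.74-fold to 1.48-fold (1.12 to 1.98). For Acta2 the intervals of the fold in ESCs and in 48h-EpiLCs did not overlap in the marker-selected cells. The part of residual feeder cells in the larger ESC folds was not tested beyond this restriction.

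Over all cells outside the feeder class, the stages were then compared, with 2.71% of 9395 genes called higher and 3.91% lower in 48h-EpiLCs. Of the 7 contractile genes counted, Cnn1 (2.87-fold, 2.59 to 3.19) and Myl9 (2.37-fold, 2.25 to 2.48) were called higher and Acta2 lower, at 12.3 CPM against 34.8 in the ESC library (0.353-fold, 0.335 to 0.372). The direction for Acta2 did not hold in the marker-selected cells, where it stood at 11.9 in 48h-EpiLCs and 8.06 in ESCs, 1.48-fold higher (1.37 to 1.60). Tagln likewise went from 0.871-fold to 2.75-fold (2.61 to 2.89). In the same cells Tpm2 was 2.87-fold, Myl9 3.18-fold and Cnn1 3.57-fold higher in 48h-EpiLCs, and Tagln2 was 0.634-fold (0.621 to 0.647).

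Within each line, the stage comparison gave 4.83% of 9233 genes higher and 4.62% lower for the WT class, and 2.62% of 9460 higher and 3.85% lower for the KO class. The contrasts of the lines use different cells of the same 2 libraries. Tpm2, Cnn1 and Tagln were called higher in WT 48h-EpiLCs, at 3.25-fold, 3.48-fold and 2.16-fold, and Myl9, Cnn1 and Tpm2 in KO 48h-EpiLCs, at 3.37-fold, 3.37-fold and 2.16-fold. The medians over the counted contractile genes were 0.90 and 0.78 on the log2 scale, beside 0.03 and -0.02 over all genes. Myl9 was 1.67-fold higher in WT 48h-EpiLCs (1.19 to 2.37), below the interval of the KO class (3.10 to 3.67). Tagln2 was lower in 48h-EpiLCs of both lines, at 0.573-fold (0.509 to 0.644) and 0.651-fold (0.631 to 0.672). Acta2 was 0.339-fold in the WT class (0.154 to 0.689), from 32 and 11 UMIs, and 0.851-fold in the KO class (0.784 to 0.925). In the marker-selected cells it remained 0.352-fold in the WT class (0.160 to 0.719) and was 1.98-fold in the KO class (1.77 to 2.22). Tagln in the KO class, 1.74-fold higher in 48h-EpiLCs over all cells of the class and not called, was 3.43-fold higher (3.16 to 3.72) in the marker-selected cells, at 59.3 against 17.3 CPM.

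Feeder cells differed from the other cells of the ESC library at many genes, with 20.0% of 9991 called higher and 14.2% lower. All 9 contractile genes counted were called higher, with a median log2 ratio of 3.88 beside -0.08 over all genes. Acta2 (47.5-fold), Acta1 (46.6-fold) and Tagln (44.2-fold) had the largest folds of the 10, and Tagln2 (3.09-fold) and Tpm1 (8.52-fold) the smallest of those counted. Against marker-selected ESCs, these folds were 205 for Acta2, 144 for Acta1, 143 for Tagln, 3.23 for Tagln2 and 9.99 for Tpm1. Just outside and inside the threshold, 54 cells with 3 or 4 Col1a2 UMIs had Acta2 at 1663 and Tagln at 1927 CPM, and 19 cells with 5 or 6 had 1096 and 1367. The threshold therefore left cells of like contractile level in the other classes, 15 of the 54 (27.8%) being in the KO class and 0 in the WT class. Among marker-selected ESCs the KO class made up a like share, 27.0%, and the WT class 4.09%.

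**Figure D3:**
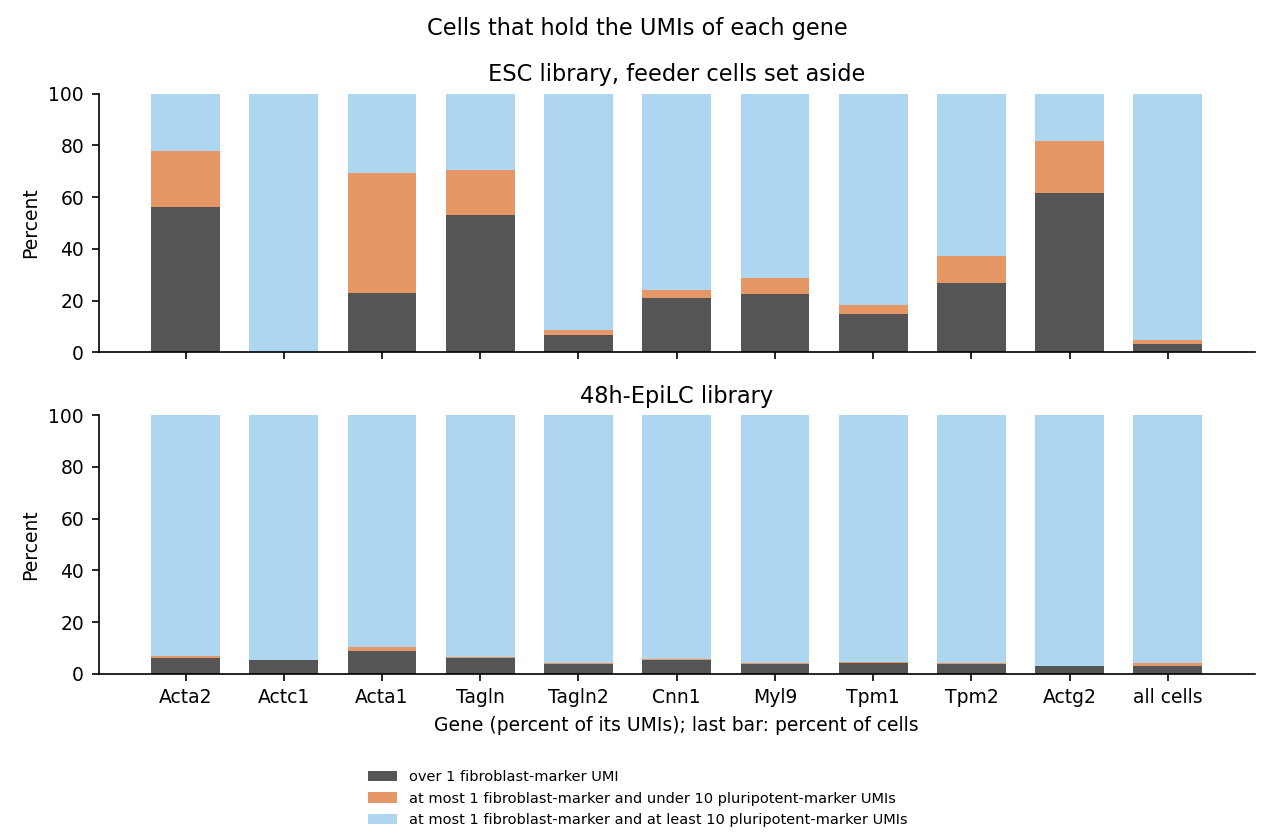
Percent of the UMIs of each gene held by 3 sets of cells outside the feeder class, with the percent of cells in the last bar. In the ESC library the marker-selected cells, 95.1% of cells, held 22.2% of the Acta2 UMIs and 29.6% of the Tagln UMIs, whereas in 48h-EpiLCs they were 95.7% of cells and held at least 89.8% of the UMIs of each gene.

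The ESC-library UMIs of Acta2, Acta1, Actg2 and Tagln came largely from few cells. Outside the feeder class, 355 cells with more than 1 fibroblast-marker UMI (3.24%) held 56.3% of the Acta2 UMIs, 53.2% of Tagln, 61.6% of Actg2 and 22.9% of Acta1. A further 181 cells (1.65%) had at most 1 fibroblast-marker and under 10 pluripotent-marker UMIs and held 21.5% of Acta2 and 46.2% of Acta1. These were shallow, with a median of 3439 UMIs, and had Acta2 at 1490, Tagln at 1676 and Actc1 at 0 CPM, beside 48.5 for the fibroblast and 1246 for the pluripotent markers. Their simple-epithelium list summed to 10139, against 10675 in feeder cells and 243 in marker-selected ESCs, their primitive endoderm list to 184, against 184 and 49.6, and their trophoblast list to 164, against 17.9 and 22.4. Of the 10139, S100a6 alone gave 8466 and Anxa2 842, so the keratins of that list made up only a small part. The genes leading them, chosen after their values were seen, were S100a4 and S100a6, calcium-binding proteins, with Tm4sf1, Crabp1, Lgals1, Cald1, Cryab and the annexins Anxa1, Anxa2 and Anxa5. The marker-selected cells held 22.2% of Acta2 and 29.6% of Tagln but 91.5% of Tagln2, 81.6% of Tpm1 and all 34 Actc1 UMIs. In 48h-EpiLCs they held between 89.8% (Acta1) and 97.0% (Actg2) of the UMIs of the 4 actins and 93.4% of Tagln.

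The level of each gene in the other ESC-library cells was also taken in percent of its level in feeder cells. For the 10 fibroblast markers it was 0.529 for Col1a2, which the feeder rule itself holds low, and ranged from 1.19 (Postn) to 5.28 (Dcn) for the other 9. Acta2 (2.11), Acta1 (2.15), Tagln (2.26) and Actg2 (4.42) lay within that range, as did Tpm2 (5.28). Myl9 (7.79), Cnn1 (7.94), Tpm1 (11.7) and Tagln2 (32.4) lay above it, and Actc1, with 0 UMIs in feeder cells, had no such value. The upper end came from Dcn and Thy1 (5.22), at 5.42 and 2.37 CPM in the library without called feeder cells. The markers other than these and Col1a2 reached at most 3.31 (Lum), below Actg2 and Tpm2. In marker-selected ESCs the percentages were 0.488 for Acta2, 0.693 for Acta1, 0.700 for Tagln, 0.839 for Actg2 and 3.46 for Tpm2. The genes above the range were at 5.79 (Myl9) to 30.9 (Tagln2). That selection also lowers the fibroblast markers, so no range is given there.

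**Figure D4:**
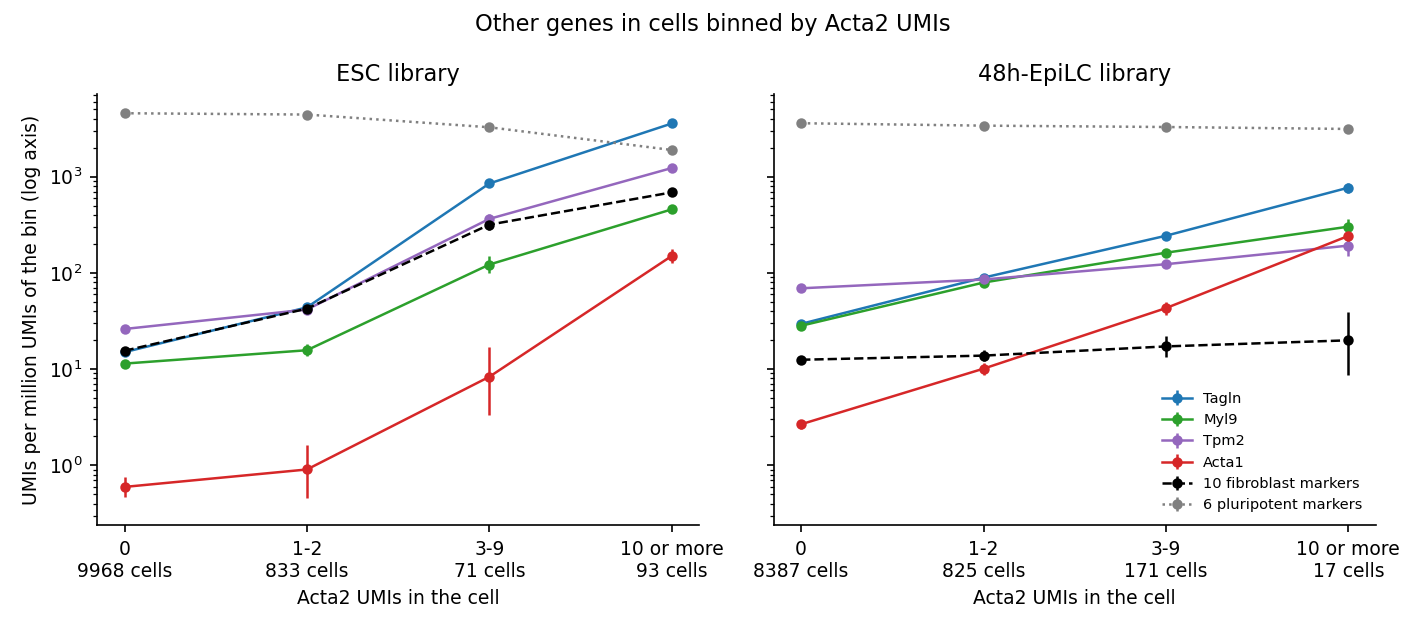
Level of 4 contractile genes and of the summed fibroblast and pluripotent markers in cells binned by their Acta2 UMIs, feeder cells aside, in CPM of the bin on a log axis with exact 95% Poisson intervals. In the ESC library the fibroblast markers climbed with Acta2 from 15.5 to 686 and the pluripotent markers declined, whereas in 48h-EpiLCs they stayed between 12.5 and 19.9 while Tagln, Myl9, Tpm2 and Acta1 climbed.

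Cells with Acta2 differed between the libraries in their other markers. In the ESC library, 93 cells outside the feeder class had at least 10 Acta2 UMIs, of which 59 had more than 1 fibroblast-marker and 66 had under 10 pluripotent-marker UMIs. Their pluripotent markers summed to 1892 CPM, against 4559 in the 9968 cells without Acta2, and their simple-epithelium list, which includes Anxa2 and S100a6, to 10793 against 295. Of the 93, 15 were in the KO class, 0 in the WT class and 62 carried neither mark. Of all 10965 cells outside the feeder class, 2944 were KO, 434 WT and 5284 without either mark. In the 48h-EpiLC library, 17 cells had at least 10 Acta2 UMIs, 14 of them in the KO class and 0 in the WT class, 1 with more than 1 fibroblast-marker UMI and 0 with under 10 pluripotent-marker UMIs. Their pluripotent markers summed to 3130 (2960 to 3308), against 3589 in the 8387 cells without Acta2. The KO class made up 28.8% of the 48h-EpiLCs with no Acta2 UMI, 52.0% of those with 1 or 2, 67.8% of those with 3 to 9 and 82.4% of those with at least 10, and the WT class 4.26%, 1.33%, 0 and 0. Depth also climbed over these bins, with medians of 15086, 17001, 19153 and 18363 UMIs.

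The bins were repeated within marker-selected KO-class 48h-EpiLCs, all of them of 1 line and with at most 1 fibroblast-marker UMI. From 2307 cells with no Acta2 UMI to 108 cells with 3 to 9, Tagln went from 37.5 (35.7 to 39.3) to 256 (237 to 277), Myl9 from 38.6 to 172 (156 to 189), Acta1 from 3.23 to 37.2 (30.1 to 45.5), Actc1 from 2.17 to 24.3 (18.6 to 31.2) and Cnn1 from 9.11 to 35.3 (28.4 to 43.4). Tagln2 went only from 121 to 181 and Tpm2 from 69.2 to 123. The pluripotent markers stood at 3476 and 3360, the fibroblast markers at 9.32 and 9.02, and median depths at 17211 and 20386 UMIs. The 5 smooth-muscle markers other than members (Myh11, Myocd, Lmod1, Des and Smtn) summed to 25.0 (23.5 to 26.5) and 42.3 (34.7 to 51.1). In the whole KO class of 48h-EpiLCs, Myh11, the smooth-muscle myosin heavy chain, had 22 UMIs and Myocd, the smooth-muscle SRF cofactor, 5 UMIs, 0.371 and 0.0843 CPM, with 1 UMI each (0.161 CPM) in the WT class. Lmod1, a leiomodin, stood at 2.73 in the KO and 1.45 in the WT class, Des, the muscle intermediate filament desmin, at 13.3 and 13.5, and Smtn, smoothelin, at 9.95 and 9.33. The cardiac list, which included no member, stood at 29.3 (27.8 to 31.0) in marker-selected KO cells with no Acta2 UMI and at 31.4 (24.9 to 39.0) in those with 3 to 9.

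For Acta2 and Tagln, a contrast between the libraries also appeared in how UMIs were spread over cells. The 1% of ESC-library cells with most Acta2 held 75.6% of its UMIs outside the feeder class, against 33.3% in 48h-EpiLCs. The shares for Tagln were 61.6% and 20.9%, for Myl9 28.8% and 12.8%, for Tpm1 12.7% and 5.38%, and for Tagln2 6.07% and 5.97%. Such a share is also higher where a gene has fewer UMIs, as Myl9 and Tpm1 had in the ESC library, and Tagln2 showed no contrast. Thinning to 5000 UMIs gave 80.1% and 40.9% for Acta2. For Actc1, Acta1 and Actg2, fewer cells than 1% of the library carried a UMI in at least 1 library, so that such shares say nothing about them there.

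Correlations over cells describe which genes moved together. They rest on cells of 1 library that share its depth, and are given as Pearson's r of log-scaled UMIs per 10000 without a test. In marker-selected KO-class 48h-EpiLCs (2830 cells), the largest r between members were 0.46 for Tagln with Acta2 and with Myl9, 0.40 for Acta2 with Myl9, 0.36 for Tagln with Tpm1, and 0.33 for Acta2 with Acta1 and for Myl9 with Tpm1. In marker-selected KO-class ESCs (2821 cells), r of Acta2 with Tagln was 0.20, while over all ESC-library cells outside the feeder class it was 0.73.

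The genes most like the summed members in 48h-EpiLCs (9400 cells, 13728 genes in at least 1% of cells) were Dstn (r = 0.39), Cnn2 (0.38), Csrp1 (0.31), Actb (0.29), Hspb1 (0.29), Gm10260 (0.28), Abracl (0.28) and Cald1 (0.27). Dstn encodes destrin, which severs actin filaments, Cnn2 is a non-muscle calponin, Csrp1 a LIM protein of actin bundles and Cald1 caldesmon, and 4 of the 8 are on the lists of SRF targets given below. Within marker-selected KO-class cells, Dstn (0.47), Cnn2 (0.41), Cald1 (0.36), Actb (0.35), Csrp1 (0.34) and Abracl (0.33) again led, followed by Myl6 (0.25) and Vcl (0.24). In the ESC library (10965 cells) the 8 were S100a4 (0.49), S100a6 (0.47), Bgn (0.45), Cald1 (0.44), Tm4sf1 (0.44), Timp2 (0.43), Anxa2 (0.43) and Lgals1 (0.43), of which Cald1 alone was also among the 8 of 48h-EpiLCs. In marker-selected ESCs no gene exceeded 0.18. The members were summed as raw UMIs, so in 48h-EpiLCs Tpm1 (193 CPM), Tagln2 (106) and Tpm2 (72.4) weighed more than Acta2 (12.3). The lists for that library therefore describe the abundant members more than the rarer actins.

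The regulators and other targets of the pathway were taken from 3 lists. Their values are over all cells of each class, without the restriction to marker-selected cells, and the part of residual feeder cells in them was not tested. Of the 7 genes for SRF and its cofactors, 5 were counted in 48h-EpiLCs, and Srf itself was the 1 called higher in the KO class, at 31.3 against 15.0 CPM (log2 ratio 1.02). Elk4, an ETS-family partner of SRF, stood at 8.28 against 5.79, Elk1 at 7.94 against 6.59 and Mrtfb at 10.1 against 9.33. In ESCs, 0 of 6 were called, with Srf at 29.8 in the KO and 20.9 in the WT class (0.49), Elk1 at 0.47, Elk3 at 0.18 and Mrtfb at 0.05 on the log2 scale. Between the stages Srf stood at 25.0 in 48h-EpiLCs and 25.5 in ESCs over all cells, at 15.0 and 20.9 in the WT class and at 31.3 and 29.8 in the KO class. Over all cells, 0 of 5 genes of the list were called, with Mrtfa, Elk4 and Elk1 at log2 ratios of -0.03, 0.07 and -0.41. Feeder cells had Elk3 at 74.9 against 7.70 and Elk4 at 20.2 against 6.90, with 3 of 6 called higher, Elk1 at 0.29 and Srf at -0.45.

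Among 30 other actin-MRTF-SRF target genes, 24 were counted in each line comparison. In 48h-EpiLCs 1 was called higher and 0 lower in the KO class (median log2 ratio 0.26), namely Csrp1 at 47.4 against 20.7 CPM. Cnn2 stood at 70.6 against 39.6, Ccn1 at 40.1 against 45.8 and Tpm4, a non-muscle tropomyosin, at 34.7 against 53.7. In ESCs 0 of 24 were called (median 0.05), from Ccn1 at -0.73 and Csrp2 at -0.63 to Thbs1 at 0.77 and Itga5 at 0.84. Between the stages 1 was called higher, Ccn1 at 42.8 in 48h-EpiLCs against 14.8, and 1 lower, the integrin Itga5 at 9.84 against 24.9, with Pdlim7 at 0.89 and Lima1 at -0.86. In feeder cells 22 of 29 were called higher and 0 lower, with the largest ratios for Thbs1 (715 against 9.96) and Cald1 (1854 against 66.9), while Csrp2 (-0.73) and Tpm3 (-0.29) were below 0.

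Of the 8 immediate early genes that SRF drives with ternary complex factors, 6 were counted in each line comparison. In 48h-EpiLCs 2 of the 6 were called lower in the KO class and 0 higher (median -0.76), Fos at 14.1 against 44.4 and Fosb at 15.4 against 46.8, with Junb at -0.47 and Mcl1 at 0.10. In ESCs 0 of 6 were called (median -0.35), with Ier2 at -0.77, Fos at -0.54, Fosb at -0.17 and Mcl1 at -0.04. Over all cells, Fosb (25.1 against 10.8) and Egr1 (95.6 against 44.1) were the 2 called higher in 48h-EpiLCs, and Fos (-0.57) and Junb (-0.88) were below 0. In feeder cells Fosb (2.84) and Junb (1.98) were called higher and Ier2 (-1.28) lower, with Mcl1 at -0.85.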

How the data were processed

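Gene expression was measured by droplet single-cell RNA sequencing in 2 libraries, ESC and 48h-EpiLC. The authors aligned the reads to the mouse genome mm10 with the tdTomato coding sequence added, and deposited UMI counts per gene and cell barcode, not normalized. Per the labels, the submitters' notes name Cell Ranger 3.0.2 and Seurat 4. All value columns were used.

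From the deposited counts, cells were filtered and classed as described in the report, and raw UMIs were summed per class with Python 3.11.15 (numpy 2.4.6, scipy 1.17.1, pandas 2.3.3). Each class is 1 library without replicate, so no test was made. Levels carry exact 95% Poisson intervals, shares exact binomial intervals, and folds exact conditional binomial intervals of the 2 summed counts. Where a class had 0 UMIs, the limit was 3 counts. Log2 ratios used a pseudocount of 1 CPM, and genes were counted at a mean of at least 5 CPM. The intervals of folds were tried on simulated Poisson counts, the model they assume. Such counts cannot show how the intervals behave where UMIs gather in few cells.

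The 10 genes and the pathway and marker lists were chosen with earlier results of these data known. Named were every member, the 8 genes most like them in each library, and the 2 highest and 2 lowest log2 ratios of each pathway list per comparison. One further list is not reported here. Likeness was Pearson's r over cells with the members' summed UMIs, both as ln(UMIs per 10000 + 1).

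Scrublet (scanpy 1.11.5) marked 0 of 11054 ESC-library and 1 of 9400 48h-EpiLC barcodes (0.0106%) and was judged not to have worked, so no doublet was removed, and leaving out the top 10% of scores was an alternative. Others were TMM scaling (edgeR 4.0.16 in R 4.3.3), a pseudocount of 0.1 CPM, thinning to 5000 UMIs, other filters on cells and genes, stricter calls of line and feeder cells, and leaving out cells rich in members or fibroblast markers. Promoter sequences came from RefSeq, with 8 of 10 genes matched.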

Additional observations from a re-analysis of the deposited data

Results flagged for a closer look

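Acta2 differed between the lines in the direction of its stage difference once cells with more than 1 fibroblast-marker UMI were left out. In those cells it was 0.352-fold in 48h-EpiLCs over ESCs in the WT class, from 11 and 31 UMIs, and 1.74-fold in the KO class. With 1 library per stage, the difference between the lines was not tested.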

How the results depend on the processing

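Of the counts and medians of the contractile genes under the alternatives, 189 stayed close to the main value and 18 moved. For the stage comparison over all cells, the 1 gene called lower (Acta2) became 0 with at least 2000 genes and at most 5% mitochondrial UMIs per cell, with 0 Col1a2 UMIs, without the top 1% of member-high cells, and in both restrictions by markers, and 2 with no filter on low values. The 2 called higher became 4 at a mean of at least 1 CPM, with no filter, and in marker-selected cells, where the median log2 ratio was 1.40 in place of 0.61. Acta2 there reversed, from -1.43 to 0.51. With a mean of at least 1 CPM or no filter, 1 gene was called lower between WT stages in place of 0, 5 higher between KO stages in place of 3, and 5 higher between the lines in 48h-EpiLCs in place of 3, as the rarer actins were then counted. Between the lines in ESCs, the 2 called higher became 1 with at most 1 fibroblast-marker UMI and 0 in marker-selected cells. The stricter line call asked for at least 2 tdTomato UMIs in the WT class and at least 4 UMIs of the Y-linked genes in the KO class. It left 33 of 434 WT cells of ESCs and 24 of 368 of 48h-EpiLCs, with 2 and 0 Acta2 UMIs. Both marker restrictions were chosen after seeing the data. Of the log2 ratios of single members, 557 stayed within their counting interval, 132 moved and 1 reversed, a reversal being counted only for a ratio past 2-fold. Ratios not past it also changed sign, among them Tagln between stages over all cells (0.871-fold to 2.75-fold in marker-selected cells) and Acta2 between KO stages (0.851-fold to 1.98-fold). TMM shifted log2 ratios by -0.12 to 0.03. No paired analysis was possible because each group is 1 library and the labels give no shared replicate numbers, and no replicate could be left out for the same reason. Depth limits Actc1, Acta1 and Actg2, which had 5 or fewer UMIs in the WT classes.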

Other observations

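Cells that carried neither line mark, 5284 in the ESC and 4247 in the 48h-EpiLC library, belonged to no line comparison. In 48h-EpiLCs Acta2 at 5.05 CPM (4.51 to 5.63), Tagln at 27.0 (25.8 to 28.3) and Myl9 at 23.6 (22.4 to 24.8) lay between the levels of the WT and KO classes in these cells. Cnn1 at 7.98 (7.30 to 8.71) and Tpm1 at 173 (170 to 176) lay below the KO class. Their intervals overlapped those of the WT class, 6.38 to 11.1 and 165 to 186, as did that of Tagln. In the ESC library Acta2 stood at 47.9 CPM in the cells without either mark (46.2 to 49.7) and Tagln at 66.0 (64.0 to 68.1), above both classes, beside 27.1 CPM of the fibroblast markers.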
